A study of Mus musculus with 6 samples.

Results

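The extracellular matrix is the mesh of secreted proteins and sugars around cells, and in the hippocampus it forms the basement membrane of blood vessels and the nets around neurons. Laminins and type IV collagen build the basement membrane, and the lecticans, which are proteoglycans that bind hyaluronan, fill the space between brain cells. Integrins and syndecans are the receptors that hold cells to this mesh, metalloproteases of the ADAMTS family cut it, and tissue inhibitors of metalloproteases (TIMPs) restrain that cutting. The genes described here are the rows of the deposited table whose symbol begins with a collagen, laminin, integrin, ADAM, ADAMTS, matrix metalloprotease, TIMP, syndecan, glypican, thrombospondin, SPARC, fibulin, lectican, tenascin C or link protein stem. This rule took 23 of the 2404 listed genes. There were 5 ADAMTS proteases, 5 integrin alpha subunits, 4 collagens, 3 laminin chains, 3 lecticans, 1 TIMP, 1 syndecan and 1 thrombospondin, and every symbol taken belongs to a gene of the matrix, its receptors or its proteases.

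The hippocampi of 3 CORT-treated mice and 3 vehicle-treated mice were profiled by RNA sequencing. CORT, the corticosterone of the study's methods (the treatment label reads cortisone), is the main stress glucocorticoid of rodents and was injected under the skin every day at 40 mg/kg for 36 days, while vehicle mice received the injected solution of DMSO, Tween-80 and water without it. All were male C57BL/6 mice aged 7 to 8 weeks at the start, with no genetic change named. The whole hippocampus was taken, so that neurons, glia, vessels and any attached meninges or choroid plexus enter 1 sample, and fewer cells of a type and less RNA per cell cannot be told apart. Levels are given as TPM, a share of all transcripts in a library after scaling for transcript length. The 3 control columns carry the name WT and were taken as vehicle.

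Only genes that the authors had called different on these same libraries are in the table, and a small p-value therefore cannot serve as separate support for a difference. The fit used limma and log2(TPM + 1). It took in 2241 genes that reached 1 TPM in 3 or more libraries, the Benjamini-Hochberg method adjusted the p-values over all of them, and a gene is called higher or lower at an adjusted p under 0.05. The listed genes held 30.1% to 31.5% of the TPM in CORT libraries and 29.2% to 29.9% in vehicle libraries. Relative to the mean library, levels changed with the GC content of the transcript by -0.116 to -0.071 log2 units per 10 percentage points in CORT libraries and by 0.0324 to 0.177 in vehicle libraries. This slope differs between the groups, and its part in the results was not tested beyond the GC correction given beside them. Read numbers cannot be recovered from TPM, and the depth is unknown.

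In the CORT-treated hippocampus the matrix genes moved in both directions. Of the 23 genes, 20 passed the filter on low values. Adamts1, Adamts9, Itgad, Lamc1, Sdc4 and Timp3 were higher in CORT mice, and Adamts4, Bcan, Itgam, Lama5 and Thbs4 were lower. Itgad is counted here although only its CORT libraries reached 1 TPM. That is 6 higher and 5 lower of 20, against 25.8% higher, 24.7% lower and 50.6% called in either direction over all genes tested, so that the share called stood near that of the whole table. The median log2 fold change was 0.26 over the matrix genes and 0.05 over all genes tested, and it was 0.15 over the matrix genes with the GC correction. Every CORT library lay outside the vehicle range for 16 of the 20 (9 above and 7 below), against 69.8% of all genes tested. With the 3 untested genes this was 18 of 23, against 69.5% of all listed genes. The number lower was 3 without CORT replicate 1 or without vehicle replicate 2, and 1 at an adjusted p under 0.01. Summed over the 23 genes, the TPM was 368 to 370 in CORT libraries and 333 to 373 in vehicle libraries, so the groups overlapped in their total.

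**Figure D1:**
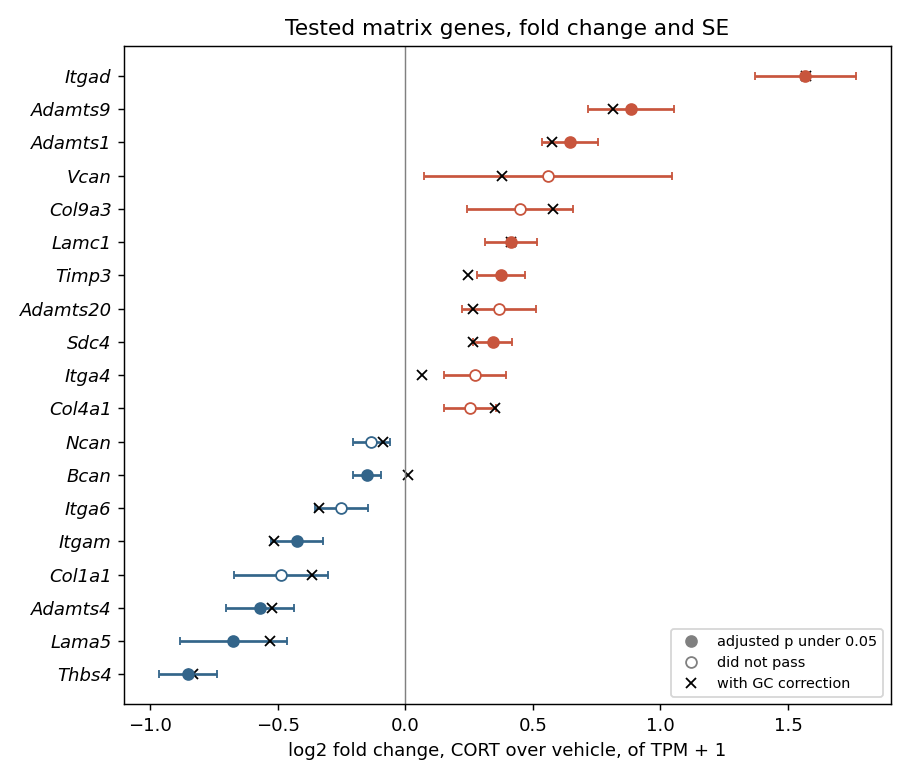
Log2 fold change of TPM + 1, CORT over vehicle, for 19 tested matrix genes, with its standard error (bars). Filled points passed an adjusted p under 0.05 and crosses give the value with the GC correction; Itgad stands at 1.57 and Thbs4 at -0.85, and the cross of Bcan lies near 0.

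The table gives no sequence, so the 250 bases before the start site were taken from RefSeq (build GRCm38.p6, not the build of the authors' alignment) for the 15 matrix genes that matched by symbol. The windows of 4 genes are printed because these genes changed in opposite directions and carry the main results: Adamts1 (chr16:85803114-85803363, minus strand) and Adamts9 (chr6:92943535-92943784, minus strand) were higher in CORT mice, and Thbs4 (chr13:92794819-92795068, minus strand) and Itgam (chr7:128062390-128062639, plus strand) were lower. Capitals mark any match, on either strand, to the motifs named next. These are the glucocorticoid receptor palindrome (GNACA and TGTNC with 3 bases of any kind between them) and its half-site AGAACA. The others are the AP-1 motif TGANTCA, the TATA motif TATAAA and the SP1 motif GGGCGG. Matches may share bases with each other.
Adamts1: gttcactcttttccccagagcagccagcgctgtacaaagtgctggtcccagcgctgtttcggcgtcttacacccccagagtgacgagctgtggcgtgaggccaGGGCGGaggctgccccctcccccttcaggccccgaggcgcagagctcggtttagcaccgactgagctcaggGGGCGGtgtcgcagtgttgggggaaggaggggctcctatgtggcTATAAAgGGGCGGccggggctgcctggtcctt
Adamts9: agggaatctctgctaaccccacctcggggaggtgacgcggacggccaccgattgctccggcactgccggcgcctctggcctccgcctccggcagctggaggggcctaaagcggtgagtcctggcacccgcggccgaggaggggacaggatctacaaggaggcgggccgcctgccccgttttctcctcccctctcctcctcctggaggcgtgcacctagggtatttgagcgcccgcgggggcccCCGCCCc
Thbs4: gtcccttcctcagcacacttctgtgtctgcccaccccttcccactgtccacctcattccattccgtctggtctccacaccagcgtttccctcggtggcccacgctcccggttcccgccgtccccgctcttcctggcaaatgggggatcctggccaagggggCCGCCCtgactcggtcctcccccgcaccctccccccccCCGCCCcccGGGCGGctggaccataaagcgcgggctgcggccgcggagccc
Itgam: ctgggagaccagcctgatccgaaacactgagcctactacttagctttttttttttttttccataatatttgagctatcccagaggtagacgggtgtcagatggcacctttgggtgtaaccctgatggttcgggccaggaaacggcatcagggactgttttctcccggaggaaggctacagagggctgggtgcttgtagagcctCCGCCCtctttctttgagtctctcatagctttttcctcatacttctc
No window of the 15 held the palindrome, which occurs in 0.387% of the 32851 promoter windows of the reference table. AGAACA occurred only in the window of Bcan, against 16.1% of all windows, and the AP-1 motif in none, against 6.75%. The SP1 motif was in 14 of the 15 windows, those of genes that rose and of genes that fell alike, with Col4a1 the exception, against 32.7% of all windows. This motif holds only G and C, and the GC content was 49.6% to 76.4% in the 15 windows, against a median of 52.4% over all windows. Its part in the share was not tested. The TATA motif was in the windows of Adamts1 and Ncan, against 12.4% of all windows. In the window of Adamts1 it begins 32 bases before the start site, next to an SP1 motif that begins 25 bases before it. A match of letters is not a binding site, and its absence speaks only of these 250 bases.

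The ADAMTS proteases moved in both directions. These are secreted zinc enzymes, and ADAMTS1, ADAMTS4 and ADAMTS9 all cut lecticans. Adamts1 had 9.22, 9.40 and 10.81 TPM in CORT libraries, against 6.12, 5.27 and 6.35 TPM in vehicle libraries. The CORT libraries all exceeded the highest vehicle value. The mean of Adamts1 was 9.81 ± 0.871 TPM in CORT mice and 5.91 ± 0.569 TPM in vehicle mice (SD, n = 3 each), and its log2 fold change was 0.65 (standard error 0.11, limma adjusted p = 0.0029). Adamts9 had 4.21, 3.97 and 4.38 TPM in CORT libraries, against 1.16, 2.15 and 2.25 TPM in vehicle libraries. The CORT libraries were again all higher, and the lowest value was that of vehicle replicate 1. The log2 fold change of Adamts9 was 0.89 (standard error 0.17, limma adjusted p = 0.0048).

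Adamts4, an aggrecanase that cuts brevican and aggrecan, changed the other way. It had 6.57, 7.26 and 5.51 TPM in CORT libraries, against 9.75, 8.69 and 11.76 TPM in vehicle libraries. No CORT library reached the lowest vehicle library. The mean was 6.45 ± 0.881 TPM in CORT mice and 10.1 ± 1.56 TPM in vehicle mice (SD, n = 3 each), a log2 fold change of -0.57 (standard error 0.13, limma adjusted p = 0.0122). Adamts1 and Adamts4 thereby changed places. The ratio of Adamts1 to Adamts4 within a library was 1.40, 1.29 and 1.96 in CORT libraries, against 0.628, 0.606 and 0.54 in vehicle libraries. Adamts1 was the more abundant transcript in each CORT library and Adamts4 in each vehicle library. The calls of Adamts1, Adamts4 and Adamts9 held at an adjusted p under 0.05 in each alternative in which the gene was tested. The highest limma adjusted p was 0.0124 for Adamts1, 0.0357 for Adamts4 and 0.0143 for Adamts9. In the main fit Adamts4 did not reach an adjusted p under 0.01. Markers of oligodendrocytes and their precursors, among the cells that express Adamts4, moved in different directions. Sox10, a transcription factor of the whole lineage, had 18.69, 18.21 and 16.59 TPM in CORT libraries, against 41.40, 29.76 and 40.75 TPM in vehicle libraries. Sox10 thus fell in the same direction as Adamts4. Of 8 oligodendrocyte markers only the myelin gene Mobp was listed, with 628 to 885 TPM in CORT libraries and 478 to 648 TPM in vehicle libraries. Mobp was called higher, opposite to Adamts4 (log2 fold change 0.51, limma adjusted p = 0.0379). Of 8 precursor markers Sox10 and Cspg4 were listed, and together they held 23.4 to 26.2 TPM in CORT libraries and 38.0 to 50.4 TPM in vehicle libraries. Most of this sum was Sox10, and Cspg4 did not pass (log2 fold change -0.25, limma adjusted p = 0.0648). None of these markers was at 0, and their part in the value of Adamts4 was not tested.

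The other members of the family did not pass or were not tested. Adamts20, a versican-cutting protease, had 4.77, 5.03 and 3.87 TPM in CORT libraries, against 2.90, 4.08 and 2.99 TPM in vehicle libraries. The third CORT library lay below the second vehicle library, and the gene did not pass (log2 fold change 0.37, standard error 0.15, limma adjusted p = 0.0584), except without vehicle replicate 2 (limma adjusted p = 0.0341). Adamts14, which trims the ends of fibrillar procollagens, was too low to be tested, with 1.35, 0.90 and 0.83 TPM in CORT libraries and 0.67, 0.51 and 0.76 TPM in vehicle libraries.

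**Figure D2:**
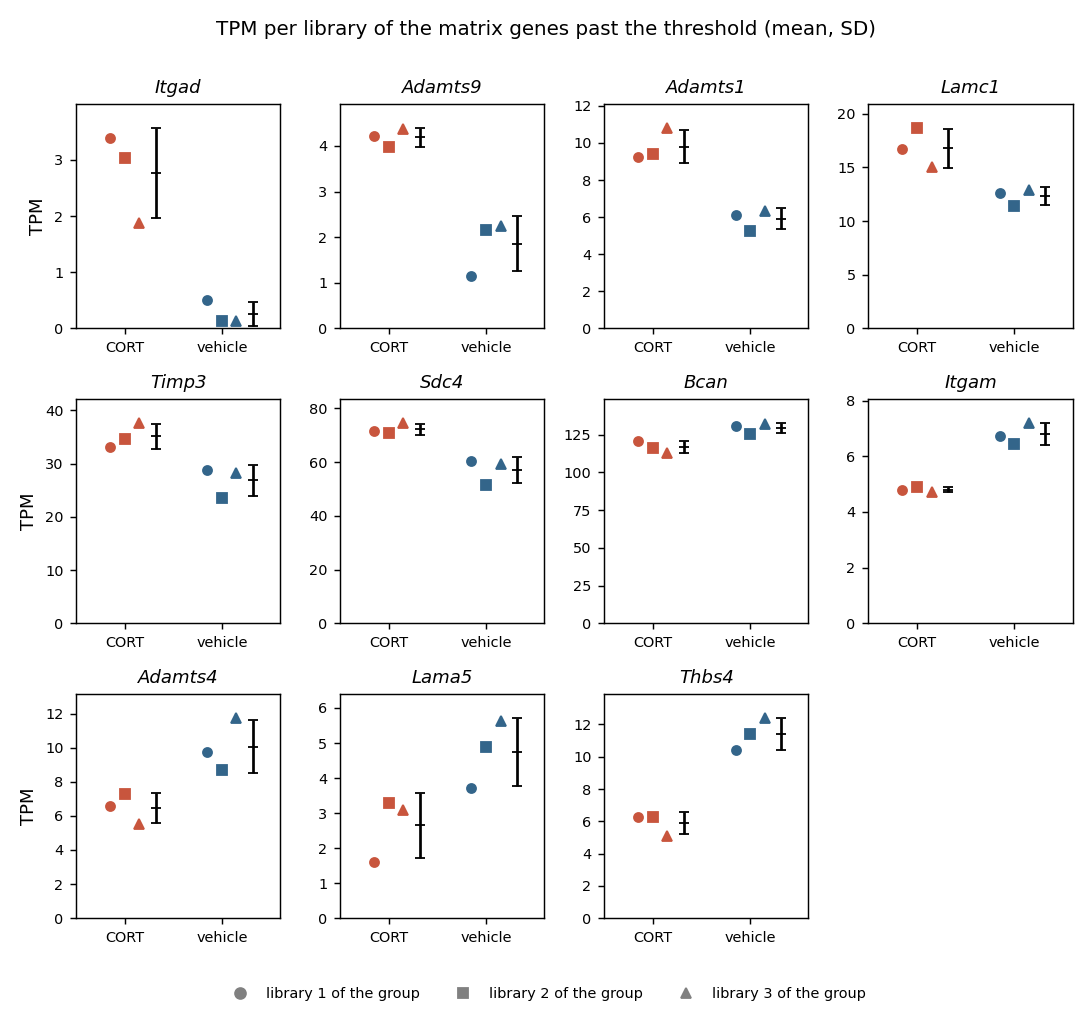
TPM in each library of the 11 matrix genes past the threshold, ordered from the largest rise to the largest fall, with the 3 CORT libraries left of the 3 vehicle libraries and the mean and SD as black bars. The groups do not overlap in any panel, but the panels were chosen by the threshold, and 69.8% of all genes tested did not overlap. Itgad, which passed the filter only through its CORT libraries, averaged 2.77 TPM in CORT mice and 0.263 TPM in vehicle mice. Bcan averaged 117 TPM in CORT mice and 129 TPM in vehicle mice.

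Timp3, a matrix-bound inhibitor whose targets include ADAMTS proteases, was higher in CORT mice. It had 33.06, 34.52 and 37.64 TPM in CORT libraries, against 28.87, 23.57 and 28.19 TPM in vehicle libraries. The groups did not overlap, with a log2 fold change of 0.38 (standard error 0.10, limma adjusted p = 0.0157). Timp3 just missed the threshold with the GC correction, with a log2 fold change of 0.25 (limma adjusted p = 0.0539). Its transcript shares 36.7% of its length with Syn3 on the opposite strand, so its level is uncertain if reads were assigned without regard to strand.

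Of the lecticans, which the ADAMTS proteases cut, Bcan and Ncan were among the most abundant matrix transcripts and differed by small steps. Bcan, or brevican, a component of perineuronal nets, had 120.92, 116.19 and 112.91 TPM in CORT libraries, against 130.74, 125.39 and 132.08 TPM in vehicle libraries. All CORT libraries were lower, but by a small step, with a log2 fold change of -0.15 (standard error 0.05, limma adjusted p = 0.0483). The call of Bcan was lost whichever library was left out (limma adjusted p = 0.0535 to 0.137) and with quantile normalization (0.0997), and the log2 fold change turned to 0.01 with the GC correction, its transcript having a GC content of 60.7%. Ncan, or neurocan, had 45.32, 45.95 and 47.05 TPM in CORT libraries, against 53.19, 46.50 and 52.52 TPM in vehicle libraries. The third CORT library exceeded the second vehicle library, and Ncan did not pass (log2 fold change -0.13, standard error 0.07, limma adjusted p = 0.122).

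Vcan, or versican, was spread more widely within each group than between them. It had 4.26, 10.26 and 6.50 TPM in CORT libraries, against 3.04, 2.34 and 9.27 TPM in vehicle libraries. The third vehicle library lay above 2 of the CORT libraries, and the log2 fold change was 0.56 with a standard error of 0.49 (limma adjusted p = 0.306). Without vehicle replicate 3 it was 1.05 (limma adjusted p = 0.0270), so that this library decided the call.

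Among the laminins, which are trimers of an alpha, a beta and a gamma chain, Lamc1 and Lama5 moved apart. Lamc1 encodes the gamma chain found in most laminins. It had 16.67, 18.66 and 15.02 TPM in CORT libraries, against 12.62, 11.41 and 12.93 TPM in vehicle libraries. Every CORT library was higher, with a log2 fold change of 0.41 (standard error 0.10, limma adjusted p = 0.0148), and the call was lost without CORT replicate 2 (limma adjusted p = 0.0546). Lama5, an alpha chain of vascular basement membranes, had 1.59, 3.30 and 3.08 TPM in CORT libraries, against 3.71, 4.90 and 5.64 TPM in vehicle libraries. Every CORT library was lower, the first by the widest margin. The log2 fold change of Lama5 was -0.67 (standard error 0.21, limma adjusted p = 0.0296), but the gene did not pass without CORT replicate 1 (log2 fold change -0.44, limma adjusted p = 0.0700), without vehicle replicate 2 (limma adjusted p = 0.0702), without vehicle replicate 3 (limma adjusted p = 0.0756) or with the GC correction (log2 fold change -0.53, limma adjusted p = 0.0935). The ratio of Lamc1 to Lama5 was 10.5, 5.66 and 4.88 in CORT libraries, against 3.4, 2.33 and 2.29 in vehicle libraries. With Lamc1 higher and Lama5 lower in every CORT library, these ratios had to lie apart, and their separation is no further result.

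**Figure D3:**
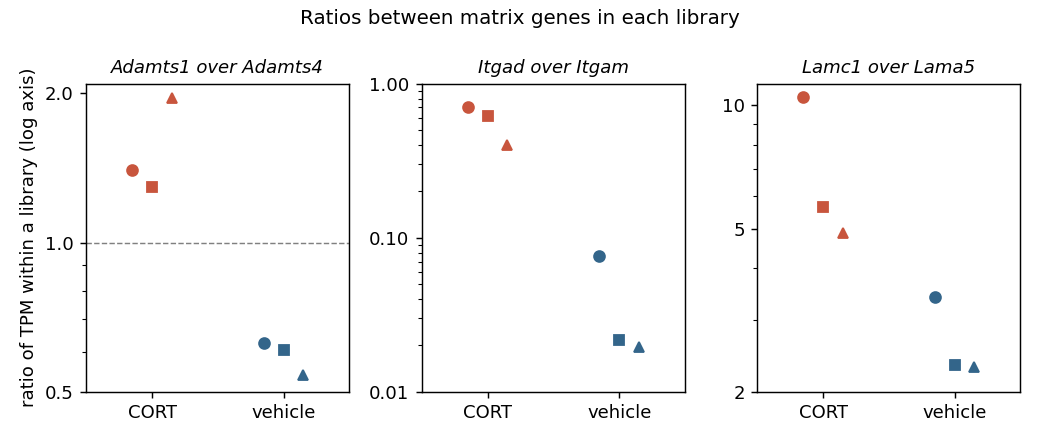
Ratio of TPM between 2 matrix genes within each library, on log axes, with CORT libraries left and vehicle libraries right. In each pair the first gene was higher and the second lower in every CORT library, so the ratios had to lie apart. Adamts1 over Adamts4 lies above 1 (dashed line) in each CORT library, at 1.29 to 1.96, and below it in each vehicle library, at 0.54 to 0.628; Itgad over Itgam is 0.398 to 0.708 in CORT libraries and 0.0194 to 0.0757 in vehicle libraries.

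No collagen passed the threshold, although the groups did not overlap for any of the 3 that were tested. Over all genes tested, 35.4% had every CORT library above and 34.4% every CORT library below the vehicle range. Col4a1, the type IV chain of basement membranes, had 10.13, 8.91 and 9.65 TPM in CORT libraries, against 8.42, 7.98 and 7.17 TPM in vehicle libraries. The CORT libraries were all higher, with a log2 fold change of 0.26 (standard error 0.10, limma adjusted p = 0.0594) that became 0.35 (limma adjusted p = 0.0174) with the GC correction. Col1a1, the main chain of fibrillar collagen, had 0.74, 0.73 and 1.02 TPM in CORT libraries, against 2.33, 1.26 and 1.22 TPM in vehicle libraries. The vehicle libraries were all higher and the first of them stood above the rest (log2 fold change -0.49, standard error 0.18, limma adjusted p = 0.0515). Col1a1 passed in 5 of its 12 alternatives, among them quantile normalization (limma adjusted p = 0.0276). Slc6a13, a transporter of meningeal fibroblasts, was also highest in vehicle replicate 1, with 1.59, 1.55 and 1.10 TPM in CORT libraries and 6.36, 2.51 and 1.42 TPM in vehicle libraries. Of 10 fibroblast and meningeal markers 3 were listed, Col1a1 itself, Slc6a13 and Apod, with a summed level of 272 to 312 TPM in CORT libraries and 154 to 234 TPM in vehicle libraries, nearly all of it Apod. Their part in the result for Col1a1 was not tested.

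Col9a3, a chain of a collagen that coats fibrils, had 7.04, 5.47 and 11.40 TPM in CORT libraries, against 5.39, 5.20 and 5.39 TPM in vehicle libraries. The third CORT library was the highest by far and the second was barely above the vehicle range. The log2 fold change of Col9a3 was 0.45 (standard error 0.21, limma adjusted p = 0.0824), and it was 0.19 without CORT replicate 3. Without CORT replicate 2 it was 0.66 and passed (limma adjusted p = 0.0277). The choroid plexus markers Folr1 and Kcne2, the 2 listed of 6, peaked in the same library. Folr1 had 3.73, 2.1 and 22.52 TPM in CORT libraries, against 1.95, 1.33 and 3.20 TPM in vehicle libraries. Kcne2 had 0.81, 0.60 and 7.51 TPM in CORT libraries, against 0.56, 0.39 and 0.27 TPM in vehicle libraries. Neither marker was at 0 in any library, and their part in the level of Col9a3 was not tested. Col6a5, a type VI chain, was too low to be tested, with 0.25, 0.67 and 0.49 TPM in CORT libraries and 0.24, 0.04 and 0.10 TPM in vehicle libraries. A stretch of 572 bases of its transcript is 96.9% identical to Col6a6, so these values are uncertain.

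The integrin alpha subunits of leukocytes gave the largest change of all the matrix genes. Itgad encodes CD11d, an alpha subunit that pairs with the beta chain Itgb2 on myeloid cells, and Itgam encodes CD11b, its close relative on microglia and macrophages. Itgad had 3.4, 3.04 and 1.87 TPM in CORT libraries, against 0.51, 0.14 and 0.14 TPM in vehicle libraries. Each CORT library was several times above each vehicle library, and no vehicle library reached 1 TPM. Itgad therefore passed the filter only through its CORT libraries, so that any tested value of it had to differ, and its fold change is given as a description without a p-value. Its mean was 2.77 ± 0.80 TPM in CORT mice and 0.263 ± 0.214 TPM in vehicle mice (SD, n = 3 each), a ratio of 10.5. On the log2(TPM + 1) scale, which understates low genes, the log2 fold change was 1.57 (standard error 0.20), and it was 3.09 with a pseudocount of 0.1.

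Itgam went the other way. It had 4.80, 4.90 and 4.70 TPM in CORT libraries, against 6.74, 6.44 and 7.20 TPM in vehicle libraries. The CORT libraries were close to each other and all below the vehicle range, with a log2 fold change of -0.43 (standard error 0.10, limma adjusted p = 0.0123). Itgad and Itgam lie on chromosome 7 with only Itgax between them, a protein-coding gene not analysed here. The ratio of Itgad to Itgam was 0.708, 0.62 and 0.398 in CORT libraries, against 0.0757, 0.0217 and 0.0194 in vehicle libraries. Even in CORT mice Itgam was thus the more abundant of the pair. The call of Itgam held at an adjusted p under 0.05 in each of its 13 alternatives, but in the main fit Itgam did not reach 0.01. Over 73.8% of its length the Itgam transcript is 99.9% identical to another annotated gene, Gm49368, so the level of Itgam is uncertain. The Itgad transcript shares 225 bases, or 5.48% of its length, with Gm17831 at 100% identity.

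Most of the listed markers of microglia fell, as Itgam did. Of 11 such markers 7 were listed and tested, 5 fell, Siglech rose and C1qb did not pass. Over all genes tested 24.7% were lower and 25.8% higher. The median log2 fold change of the 7 microglial markers was -0.84. Their summed level was 125 to 159 TPM in CORT libraries and 190 to 210 TPM in vehicle libraries. The chemokine receptor Cx3cr1 had 7.02, 8.99 and 8.84 TPM in CORT libraries, against 21.40, 20.32 and 20.99 TPM in vehicle libraries. Its log2 fold change of -1.25 was among the larger falls. The microglial markers of highest TPM fell less, by -0.25 for C1qb, -0.49 for Trem2 and -0.84 for P2ry12. Siglech, the marker that was higher, had 15.19, 16.96 and 19.56 TPM in CORT libraries, against 12.12, 12 and 13.97 TPM in vehicle libraries. No listed microglial marker was at 0, and their part in the values of Itgam and Itgad was not tested.

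The other integrin subunits did not pass. Itga4, whose partner receptor binds fibronectin and VCAM1, had 4.32, 4.92 and 4.95 TPM in CORT libraries, against 3.23, 3.96 and 4.06 TPM in vehicle libraries. The groups did not overlap (log2 fold change 0.27, standard error 0.12, limma adjusted p = 0.0757), but with the GC correction the log2 fold change was 0.06, the transcript of Itga4 having the lowest GC content of the 23 genes at 41.1%. Itga6, a laminin receptor subunit, had 7.84, 6.54 and 7.09 TPM in CORT libraries, against 8.48, 8.31 and 9.29 TPM in vehicle libraries. All CORT libraries were lower, with a log2 fold change of -0.25 (standard error 0.10, limma adjusted p = 0.0649), which passed with the GC correction (-0.34, limma adjusted p = 0.0174), quantile normalization (limma adjusted p = 0.0280) and 2 further alternatives. Itgal, the CD11a subunit of lymphocytes, was too low to be tested, with 0.34, 0.12 and 0.20 TPM in CORT libraries and 0.93, 0.39 and 0.28 TPM in vehicle libraries, the first vehicle library being the highest.

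**Figure D4:**
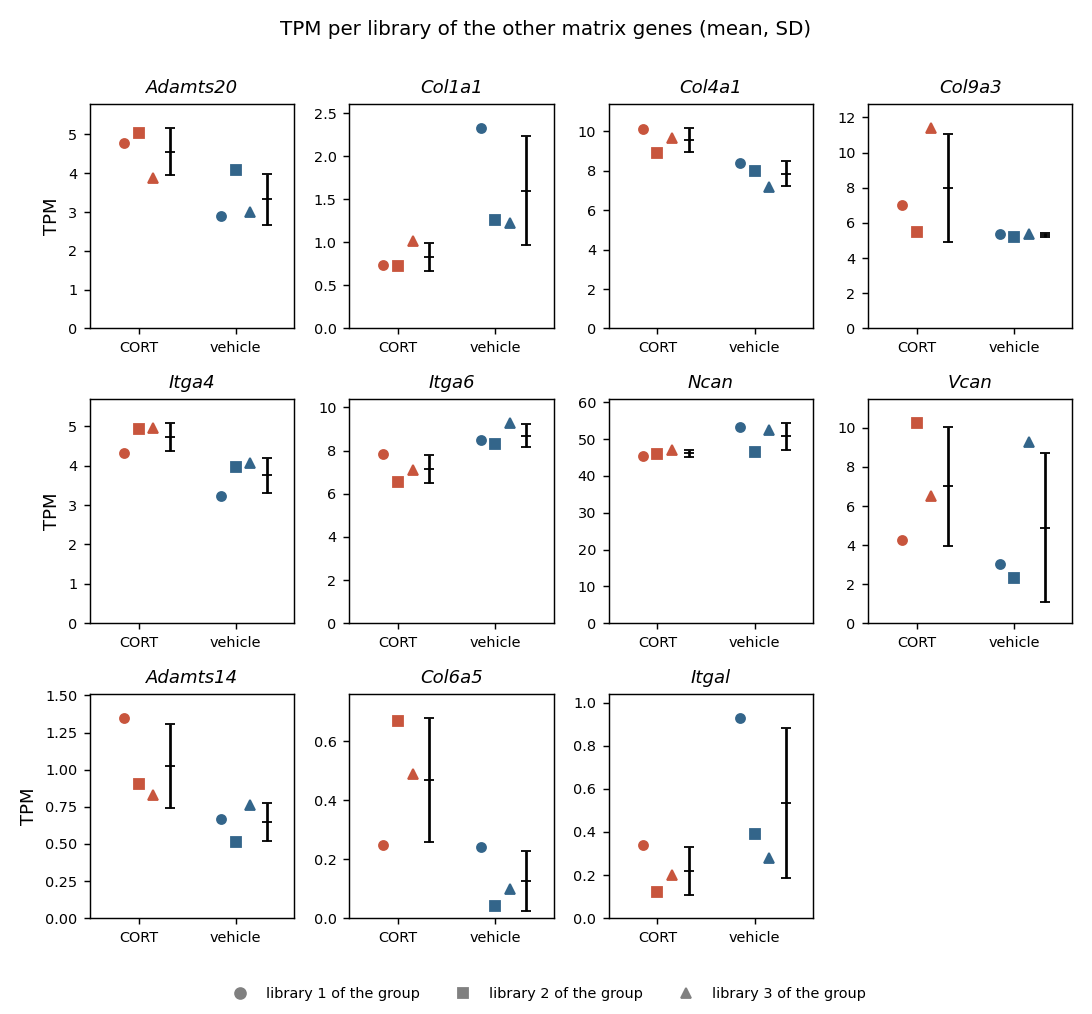
TPM in each library of 11 matrix genes that did not pass or were too low to be tested (Adamts14, Col6a5 and Itgal), with CORT libraries left of vehicle libraries and the mean and SD as black bars. Single libraries stand out for Col9a3 (11.40 TPM in the third CORT library) and Vcan (9.27 TPM in the third vehicle library).

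Sdc4 and Thbs4 were the only members of their families in the table. Sdc4, a syndecan that works with integrins at focal adhesions, had 71.43, 70.74 and 74.62 TPM in CORT libraries, against 60.29, 51.33 and 59.11 TPM in vehicle libraries. All CORT libraries were higher, with a log2 fold change of 0.34 (standard error 0.08, limma adjusted p = 0.0095). Thbs4, a secreted thrombospondin, had 6.29, 6.26 and 5.12 TPM in CORT libraries, against 10.44, 11.39 and 12.42 TPM in vehicle libraries. Its mean was 5.89 ± 0.667 TPM in CORT mice and 11.4 ± 0.99 TPM in vehicle mice (SD, n = 3 each). The log2 fold change of Thbs4 was -0.85 (standard error 0.11, limma adjusted p = 9.6e-04), the largest fall of the tested matrix genes and the 31st largest of all genes tested. The calls of Sdc4 and Thbs4 held in each of their 13 alternatives.

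Markers of the vessel wall, where Lama5, Lamc1 and Col4a1 are laid down, moved in both directions. Of 10 endothelial markers 7 were listed, with Cldn5, Tek, Cdh5 and Slco1a4 lower, the glucose transporter Slc2a1 higher, and Pecam1 and Flt1 not past the threshold. Of these 7 markers 6 had a negative log2 fold change, with a median of -0.30. Over all genes tested 25.8% were higher and 24.7% lower. The summed level of the 7 markers was 183 to 195 TPM in CORT libraries and 155 to 176 TPM in vehicle libraries. Most of this sum in the CORT libraries was Slc2a1, the only listed endothelial marker with a positive log2 fold change. Slc2a1, the highest of the 7 in each library, had 132.07, 141.36 and 131.57 TPM in CORT libraries, against 79.53, 62.39 and 79.17 TPM in vehicle libraries. Cldn5 had 18.24, 19.02 and 15.84 TPM in CORT libraries, against 52.16, 50.99 and 42.94 TPM in vehicle libraries. Of 10 mural cell markers 4 were listed, Vtn was lower, Rgs5 higher, and Pdgfrb and Cspg4 did not pass, with summed levels of 93.2 to 98.0 TPM in CORT libraries and 103 to 118 TPM in vehicle libraries. None was at 0, and their part in the values of the basement membrane genes was not tested.

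Matrix genes outside the symbol rule were read from 3 lists. Of 58 other matrix genes 14 were listed and 13 tested, 2 were higher, 3 were lower and 8 did not pass, against 50.6% called in either direction over all genes tested, with a median log2 fold change of -0.08. Emilin2, an elastic fibre glycoprotein, had 6.77, 6.34 and 7.03 TPM in CORT libraries, against 2.73, 2.12 and 4.79 TPM in vehicle libraries. Emilin2 was higher in every CORT library (log2 fold change 0.92, standard error 0.20, limma adjusted p = 0.0095), and Smoc1, a matrix protein of the SPARC kind, had a log2 fold change of 0.33. Vitronectin (Vtn), the proteoglycan Cspg5 and fibronectin (Fn1) fell, the log2 fold change being -0.40 for Vtn, -0.21 for Cspg5 and -0.30 for Fn1. Ptprz1, a phosphatase that carries chondroitin sulfate, had a log2 fold change of 0.23 and did not pass (limma adjusted p = 0.062). Only 1 gene of this list was lower when CORT replicate 1, CORT replicate 2 or vehicle replicate 1 was left out, and the number higher was 1 when CORT replicate 2, CORT replicate 3, vehicle replicate 1 or vehicle replicate 2 was left out.

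Of 67 enzymes that modify the matrix and their inhibitors, 13 were listed and 12 tested, 2 were higher, 7 were lower and 3 did not pass, against 25.8% higher and 24.7% lower over all genes tested, and the median log2 fold change was -0.26. Leaving out CORT replicate 2 left 2 of them lower, leaving out vehicle replicate 1 left 3, and leaving out CORT replicate 1 left 4. One of the higher genes passed the filter only through its CORT libraries. Plau, the urokinase that activates plasminogen, had 1.33, 1.03 and 0.95 TPM in CORT libraries, against 2.50, 2.04 and 2.50 TPM in vehicle libraries. Every CORT library was lower, with a log2 fold change of -0.67 for Plau (standard error 0.14, limma adjusted p = 0.0071). The crosslinking enzyme Tgm2 rose by 0.97 on the log2 scale, while the metalloprotease inducer Bsg, the hyaluronan-degrading protein Cemip and the sulfotransferase Chst15 had log2 fold changes of -0.28, -0.48 and -0.28.

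Of 44 adaptors and partners of integrin adhesions 11 were listed and 10 tested. Of these 5 passed as higher and 1 as lower, against 25.8% higher and 24.7% lower over all genes tested. The share called in either direction was near the 50.6% of all genes tested, and the median log2 fold change was 0.07. The tensins, which tie integrins to actin, were higher as a group of 3, with log2 fold changes of 0.39 for Tns1, 0.37 for Tns2 and 0.30 for Tns3. Tns1 had 15.39, 16.23 and 15.44 TPM in CORT libraries, against 11.60, 10.37 and 13.30 TPM in vehicle libraries. The adaptors Nedd9 and Crkl were higher by 0.43 and 0.26. Talin (Tln1), which switches integrins on, had 18.61, 21.81 and 19.81 TPM in CORT libraries, against 29.31, 27.31 and 25.61 TPM in vehicle libraries. It was lower in every CORT library, with a log2 fold change of -0.43 (standard error 0.09, limma adjusted p = 0.0072). None of the 5 higher adaptors passed without CORT replicate 2, and 2 adaptors were higher without CORT replicate 3, vehicle replicate 1 or vehicle replicate 2. The number lower was 2 without vehicle replicate 2, and leaving out vehicle replicate 3 gave a median of 0.19.

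**Figure D5:**
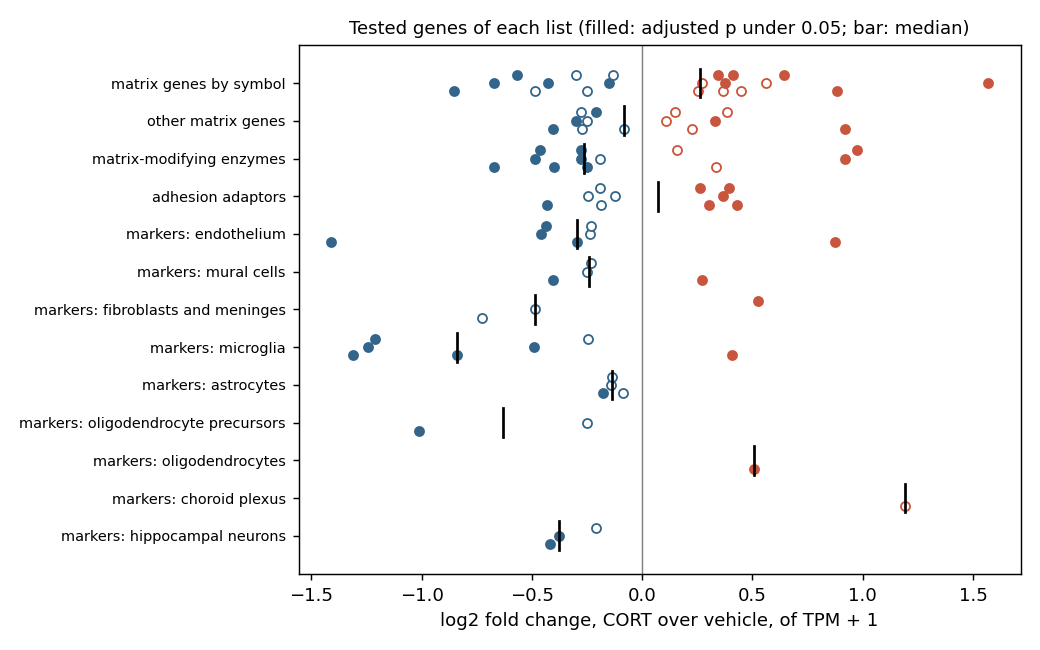
Log2 fold change of TPM + 1, CORT over vehicle, for each tested gene (points) of the matrix genes, the 3 lists of other matrix genes and the cell type markers, with the median of each list as a black bar and filled points for an adjusted p under 0.05. The median is 0.26 for the matrix genes, -0.26 for the modifying enzymes and -0.84 for the microglial markers.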

How the data were processed

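Hippocampal RNA of 3 CORT and 3 vehicle mice was sequenced from TruSeq libraries as paired-end reads. The authors trimmed reads with fastp, aligned them with HISAT2, assembled with StringTie and quantified with RSEM. The submitters' processing notes name GRCm39, and the sources read give no tool versions. TPM per library, computed by the authors, is the measurement in the deposited table. The table also has the authors' fold change (a ratio), its log2 value and the authors' p-value from DESeq2, none of which was used. Column numbers are not tied to sample titles. The p-values computed here set the difference between the groups against the spread within them, as limma estimates it with all tested genes. Depth is unknown.

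Members, gene lists and tests were chosen with earlier results of these data known. The fit used R 4.3.3 and limma 3.58.1 with trend and robust options, and its code was checked on simulated data. Counts and medians cover every member and list gene, but the values of some are not reported here. Members could be named, with up to 6 tested genes of smallest p from each matrix list and up to 3 markers of highest TPM from each cell type. Values are also given for members that did not pass, and other markers were named after their values were seen. Markers of astrocytes (4 of 8 listed, 0 higher and 1 lower), hippocampal neurons (3 of 8, 0 higher and 2 lower) and interneurons (0 of 6) were read as well. GC content came from the longest GENCODE M21 transcript, of an earlier build, for 99.9% of the listed genes, and the GC correction subtracted a natural spline (4 degrees of freedom) per library. Transcripts sharing 150 bases or more at 95% identity were found with BLAST 2.17.0. Matches not given above were those of Adamts4, Adamts9, Col9a3, Itga4 and Itga6, over 2.12% to 9.30% of the transcript. All of these lay on the opposite strand except that of Itga6. Tables and plots were made with matplotlib 3.10.9, numpy 2.4.6 and pandas 2.3.3 under Python 3.11.15. Alternatives were a pseudocount of 0.1, no filter, mean TPM of 5 or more, quantile and median-ratio scaling, limma without trend and robust options, the GC correction, and leaving out each library. An adjusted p under 0.01 was applied to the counts of matrix genes and of all listed genes, and is not among the alternatives counted for single genes.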

Additional observations from a re-analysis of the deposited data

How the results depend on the processing

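Of the 20 tested matrix genes, 19 have values reported here, and the remaining gene is left out of the counts that follow. The direction of the log2 fold change held for 18 of these 19 under all alternatives, the exception among them being Bcan (0.011 with the GC correction). Of the values of these 19 genes under an alternative, 209 kept their direction and side of the threshold, 15 no longer passed, 16 newly passed and 1 turned. The 209 include all 12 values of Itgad, which passed the filter only through its CORT libraries. Those 12 therefore say nothing of how stable the results are. The number of matrix genes lower was 3 under a mean TPM filter of 5 and 1 at an adjusted p under 0.01. Leaving out 1 library gave 3 to 4 lower and 6 to 7 higher, Itgad being counted among the higher each time. Their median log2 fold change was 0.15 with the GC correction and 0.22 to 0.27 with 1 library left out. Over all listed genes 194 were higher and 134 lower at an adjusted p under 0.01, and leaving out 1 library gave 338 to 729 higher and 282 to 464 lower.

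Among other matrix genes the median log2 fold change was 0.013 without a filter, -0.21 under a mean TPM filter of 5 and -0.010 with quantile normalization, and with 1 library left out it was -0.12 to -0.06. Under a mean TPM filter of 5, 1 of them was higher, with quantile normalization 5 were lower, and with 1 library left out 1 to 3 were higher and 1 to 4 lower. Of the matrix-modifying enzymes 1 was higher under a mean TPM filter of 5, and with 1 library left out 2 to 3 were higher and 2 to 6 lower, with a median of -0.28 to -0.24. For the adhesion adaptors the median was -0.12 without a filter and also under a mean TPM filter of 5, and 0.023 to 0.19 with 1 library left out. With quantile normalization 2 of them were lower, and with 1 library left out 0 to 5 were higher and 1 to 2 lower. The cause of these shifts was not tested. No paired analysis was possible because the sample titles of the groups share only replicate number 3. That title is not tied to the column called CORT replicate 3 here. The unknown depth limits what can be said of genes under 1 TPM.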
